A study of Mus musculus with 8 samples.

Results

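The genes described here are 10 that carry the TNF and interleukin-1 signals into a cell: the TNF receptors Tnfrsf1a and Tnfrsf1b, the interleukin-1 receptor Il1r1 and its partner Il1rap, the receptor antagonist Il1rn, the adaptor Myd88, the kinases Irak1 and Irak2, and the adaptors Traf1 and Traf6. They were listed by symbol. Each symbol matched 1 of the 52636 gene rows of the deposited table, and all 10 were among the 15698 genes that passed a filter on low counts and were tested. The question was whether the endothelial cells labelled dKO kept the machinery to sense the cytokines that were added.

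Polyadenylated RNA was sequenced from endothelial cells, the inner lining of blood vessels. The cells had been isolated from mouse liver, cultured, and sorted as live cells with CD31 and VE-cadherin and without CD45. The 4 groups of 2 libraries were dKO cells given IL1B and TNFA, WT cells given IL1B and TNFA, dKO cells without cytokines and WT cells without cytokines. The study's text describes deletion of Erg, Fli1 or both, a pair of ETS transcription factor genes, induced with 4-OHT, the active metabolite of tamoxifen. It gives 48 hours of 4-OHT, 7 days of culture, and then 16 hours with both cytokines before lysis. The labels do not expand dKO, they name both the medium and the mice as receiving 4-OHT, and they give it in the same words for WT and dKO samples. The sources used here do not give the Cre line, the age of the mice or whether animals were pooled. No source states that replicate libraries are separate mice or cultures, and the p-values therefore measure the spread between these libraries alone, which may be technical.

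TNF binds the widely expressed receptor TNFR1 (Tnfrsf1a), whose death domain recruits TRADD and RIPK1, and the more restricted TNFR2 (Tnfrsf1b), which has no death domain and recruits TRAF2 together with TRAF1. Interleukin-1 binds IL1R1, which then pairs with IL1RAP and assembles MYD88, IRAK4, IRAK1 and IRAK2, and these activate the ubiquitin ligase TRAF6. Both routes reach TAK1 and the IkB kinases, release NF-kB, and in endothelium induce adhesion molecules and chemokines.

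Library totals ran from 23009062 to 26944030 counts. Erg stood at 34.7 and 90.2 CPM (counts scaled by TMM-adjusted library size) in dKO cells with cytokines, against 208 and 201 CPM in WT cells with cytokines. Without cytokines Erg stood at 40.1 and 91.3 CPM in dKO cells, against 196 and 186 CPM in WT cells. Fli1 stood at 12.4 and 35.2 CPM in dKO cells with cytokines, against 91.5 and 96.4 CPM in WT cells with cytokines. Without cytokines Fli1 stood at 21.9 and 62.5 CPM in dKO cells, against 161 and 177 CPM in WT cells. The 2 genes were below every matched WT library in every dKO library, but 0 of the 4 tests passed an adjusted p of 0.05 in edgeR (0.0538 to 0.0864), while 4 of 4 passed in DESeq2; dKO replicate 2 kept the higher counts under both treatments. All 10 endothelial markers reached 1 CPM in each group, and their summed level was 1745 to 2575 CPM in dKO with cytokines, 5481 to 5814 in WT with cytokines, 2070 to 3691 in dKO and 9807 to 10069 in WT. In such bulk samples, fewer cells of a type and less RNA per cell cannot be told apart.

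**Figure D1:**
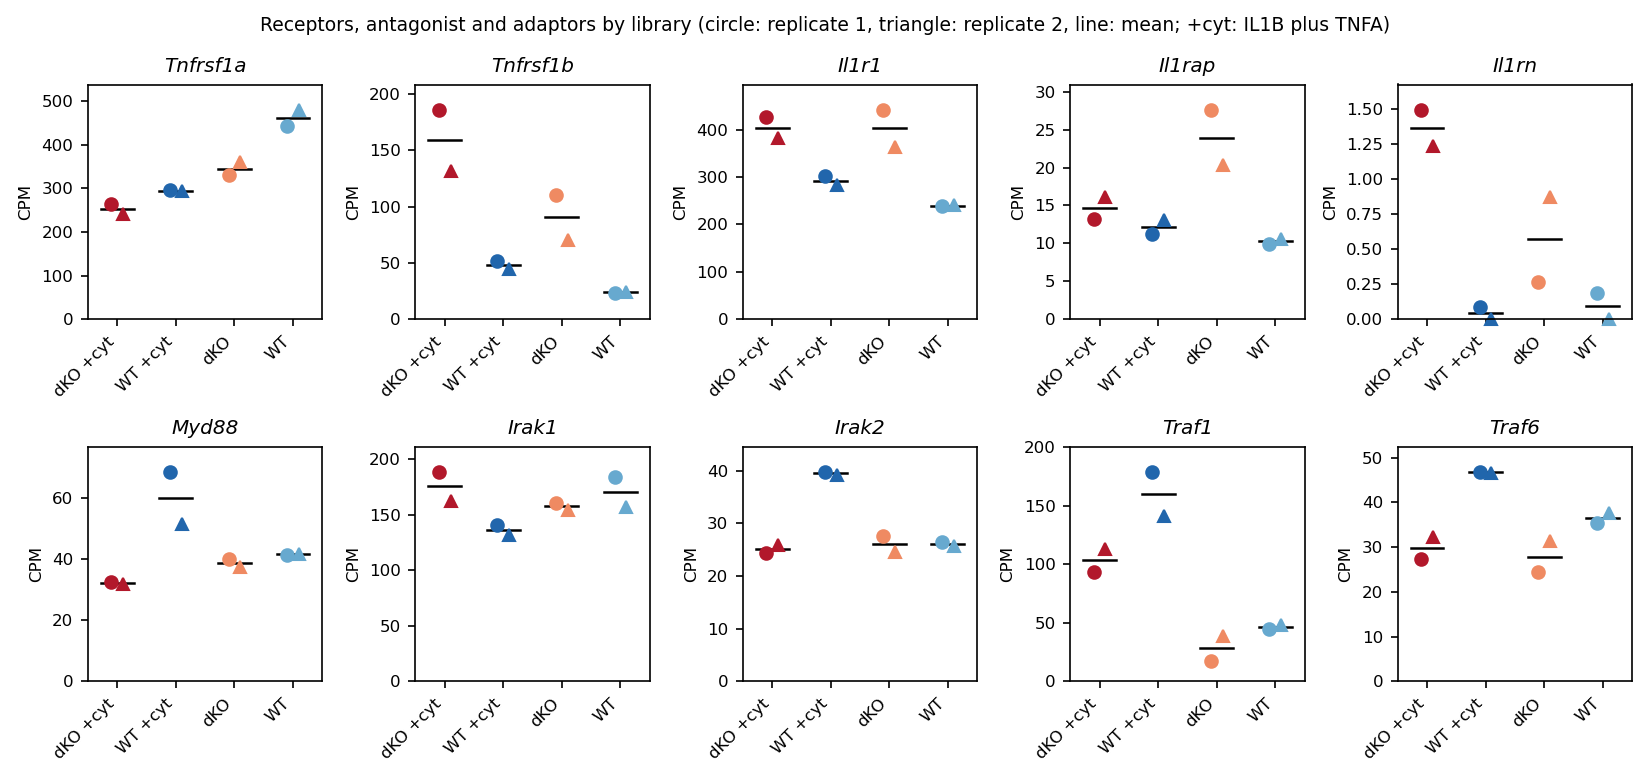
Level of each of the 10 genes (CPM, linear axis from 0) in each library, with 1 panel per gene, points for the 2 libraries of a group and a bar at their mean. Tnfrsf1b and Il1r1 lie higher in dKO than in WT libraries under both treatments, and Traf1 lies higher with cytokines in both genotypes.

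All 10 genes had counts in both dKO groups, and 9 of them stood above 10 CPM in all 4 dKO libraries. The exception was Il1rn, the secreted antagonist that occupies IL1R1 without signalling, at 1.5 and 1.24 CPM in dKO with cytokines and 0.27 and 0.87 CPM in dKO without. On a scale that allows genes to be compared, CPM per kilobase of merged exons, Tnfrsf1a was the highest of the 10 in each group, at 97.6 ± 5.92 in dKO with cytokines, 114 ± 0.442 in WT with cytokines, 133 ± 8.1 in dKO and 179 ± 10.1 in WT (SD, n = 2). Il1r1 stood second by its mean in each group on this scale. In WT cells without cytokines its libraries (mean 37.6) overlapped with those of Irak1 (mean 36.2), and per kilobase of the longest transcript Irak1 had the higher mean, 44.5 against 41.2, whereas in dKO cells the means were 63.3 and 33.4 CPM per kilobase and the libraries of the 2 genes were apart.

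The place of Tnfrsf1b in that order differed between the genotypes. With cytokines its level was 41.6 CPM per kilobase in dKO, against 12.6 in WT. Without them it was 23.7 in dKO, against 6.22 in WT. Set against Tnfrsf1a in the same library, Tnfrsf1b per kilobase reached 47.9% and 36.9% in the dKO libraries with cytokines, against 11.9% and 10.2% in the WT ones. Without cytokines it was 22.6% and 13.2% in dKO, against 3.54% and 3.43% in WT. The share was thus higher in every dKO library than in every WT library, also across treatments. Neighbours that overlapped were Tnfrsf1b and Irak1 (37.3), and Myd88 (12.5) and Traf1 (11.8), in dKO with cytokines. In WT with cytokines Myd88 (23.3) and Traf1 (18.2) overlapped, and in dKO without cytokines Traf6 (3.54), Traf1 (3.2) and Il1rap (2.11). By merged exons Il1rap and Il1rn closed the order in each group, with Il1rap at 1.29, 1.07, 2.11 and 0.905 CPM per kilobase in dKO with cytokines, WT with cytokines, dKO and WT. Il1rap and Traf1 have merged exons far longer than their longest transcripts, so the divisor changes their levels and places. Per kilobase of the longest transcript Il1rap (5.3) had a higher mean than Traf6 (4.52) in dKO without cytokines, with overlap. On that scale Traf1 (46.6) stood above Irak1 (35.5) in WT with cytokines and overlapped with Il1r1 (50.3).

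**Figure D2:**
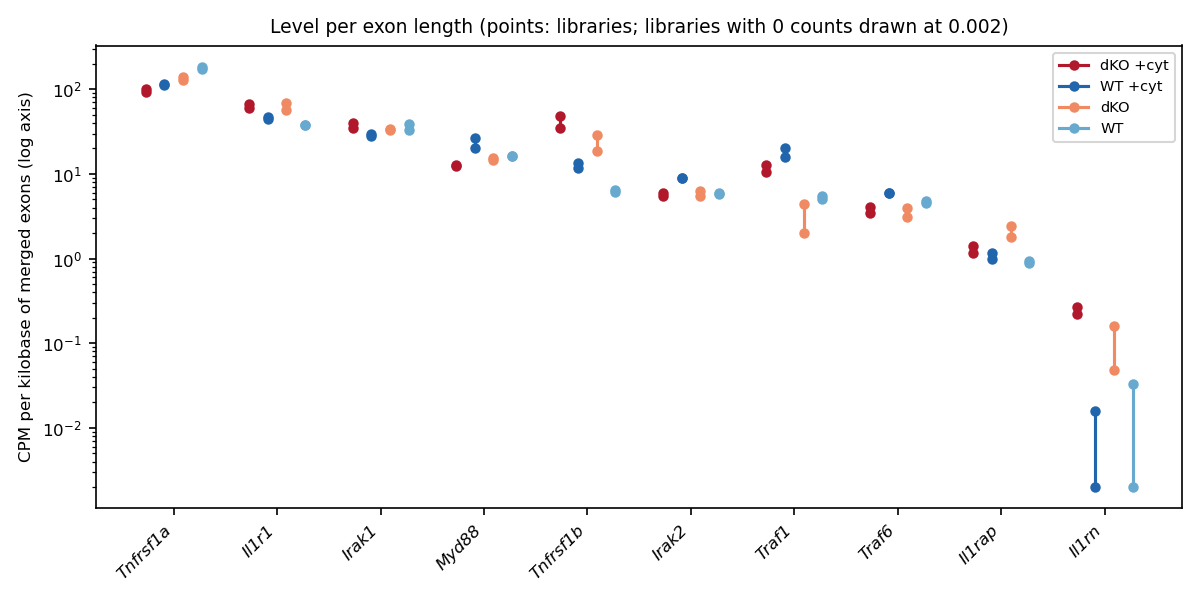
Level per gene length (CPM per kilobase of merged exons, log axis) of the 10 genes in each of the 4 groups, points for libraries, those with 0 counts drawn at the foot. Tnfrsf1a is highest in all 4 groups, and Tnfrsf1b stands higher in the dKO groups than in the matched WT groups.

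Without cytokines, dKO cells held more RNA of TNFR2 and of both interleukin-1 receptor chains and less of TNFR1 than WT cells, while Myd88, the 2 kinases and the 2 TRAF genes did not pass the test. Of the 10 genes, 3 rose (Tnfrsf1b, Il1r1, Il1rap) and 1 fell (Tnfrsf1a) at an adjusted p of 0.05 in edgeR (quasi-likelihood test, Benjamini-Hochberg adjustment over all 15698 genes). Of all genes tested, 23% passed, 13.4% higher and 9.66% lower, and the median log2 fold change was -0.05 over the 10 genes and 0.02 over all. Libraries of the 2 genotypes did not overlap for 8 of the 10 genes, as for 70% of all genes. DESeq2 called 4 of the 10, against 28.6% of all genes.

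Tnfrsf1b (ENSMUSG00000028599, GRCm38 chromosome 4, 145213463 to 145246870, minus strand) had 110 and 70.4 CPM in dKO cells, against 23.2 and 24.3 CPM in WT cells. Both dKO libraries lay above both WT libraries, though they differed from each other more than the WT pair did. The change was 3.8-fold, a log2 fold change of 1.93 (SE 0.26, adjusted p = 0.00641). Tnfrsf1a (ENSMUSG00000030341, chromosome 6, 125349362 to 125362484, plus strand) had 331 and 361 CPM in dKO cells, against 444 and 481 CPM in WT cells, and the groups did not overlap. It fell by 0.42 on the log2 scale (SE 0.1, adjusted p = 0.0308), to a level 1.34-fold lower.

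Il1r1 (ENSMUSG00000026072, chromosome 1, 40225080 to 40317257, plus strand), the chain that binds interleukin-1, had 442 and 363 CPM in dKO cells, against 239 and 240 CPM in WT cells. Il1rap (ENSMUSG00000022514, chromosome 16, 26581704 to 26730117, plus strand), the chain that IL1R1 needs to signal, had 27.7 and 20.3 CPM in dKO cells, against 9.93 and 10.6 CPM in WT cells. For both genes each dKO library exceeded each WT library, dKO replicate 1 most. Il1r1 was 1.68-fold higher (log2 0.75, SE 0.13, adjusted p = 0.0114) and Il1rap 2.33-fold higher (log2 1.22, SE 0.19, adjusted p = 0.0098).

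The genes downstream of the receptors did not pass the test in cells without cytokines. The adaptor Myd88 had 40 and 37.4 CPM in dKO cells, against 41.4 and 41.5 CPM in WT cells, a log2 difference of -0.10 with a 95% interval from -0.44 to 0.24. Irak2, a kinase that sustains the response after IRAK1, differed by 0.00 (interval -0.24 to 0.24), and Irak1 by -0.11 (interval -0.40 to 0.17). Traf6, the ubiquitin ligase of the interleukin-1 route, had 24.4 and 31.3 CPM in dKO cells, against 35.4 and 37.6 CPM in WT cells. Its log2 difference was -0.39 (SE 0.15, adjusted p = 0.0983). Traf1 had 17.7 and 38.9 CPM in dKO cells, against 45.1 and 47.9 CPM in WT cells. The 2 dKO libraries of Traf1 lay far apart, and its log2 difference of -0.72 (adjusted p = 0.184) became -1.40 (adjusted p = 0.00956) without dKO replicate 2, the library with more Erg left. Traf6 also passed without that library, at an adjusted p of 0.0381.

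A library named without a treatment had no cytokines. Each of the 4 calls rested on both WT libraries: without WT replicate 1 the adjusted p ran from 0.0618 for Tnfrsf1b to 0.0997 for Tnfrsf1a, and without WT replicate 2 from 0.0528 for Tnfrsf1b to 0.155 for Tnfrsf1a, so that 0 of 10 genes passed. The fall of Tnfrsf1a was also lost without dKO replicate 1 (0.129), without WT with cytokines replicate 1 (0.0615) or 2 (0.0667), and with the 4 libraries compared fitted alone (0.0844).

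**Figure D3:**
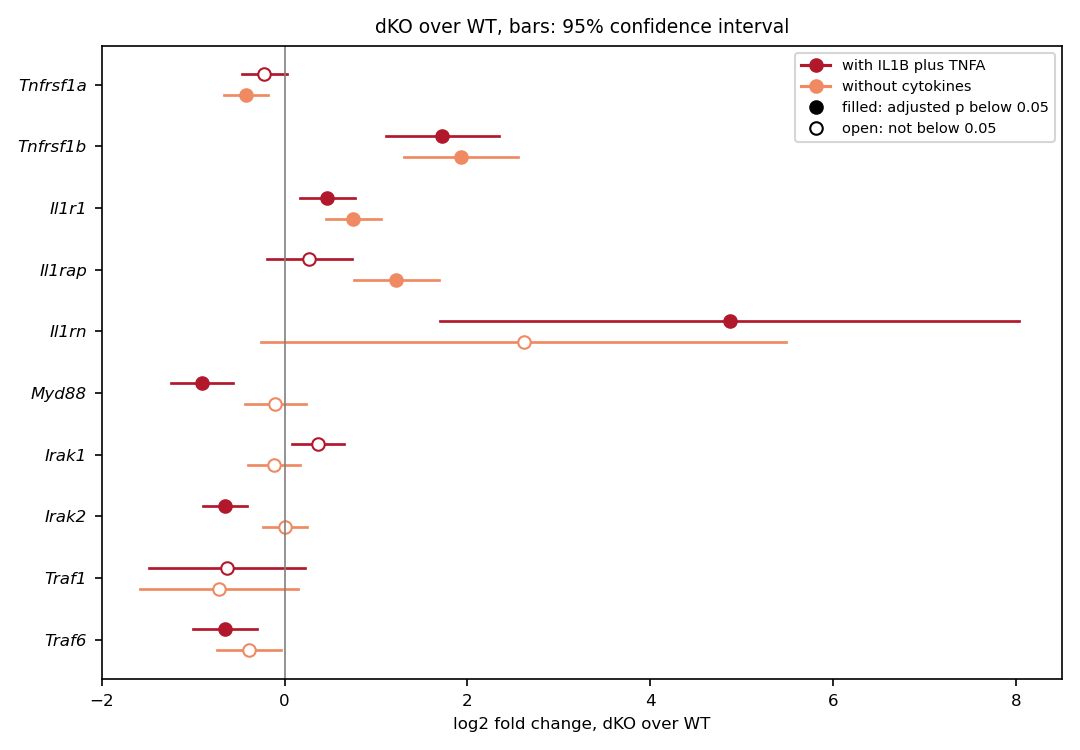
Log2 fold change of dKO over WT for each of the 10 genes, with and without cytokines, with 95% intervals from edgeR (not adjusted for the number of genes) and filled points where the adjusted p was below 0.05. Tnfrsf1b and Il1r1 lie above 0 under both treatments, and Myd88, Irak2 and Traf6 lie below 0 with cytokines.

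With cytokines, TNFR2, IL1R1 and the interleukin-1 receptor antagonist were higher in dKO than in WT cells, and the adaptors Myd88 and Traf6 and the kinase Irak2 were lower. Of the 10 genes 3 rose (Tnfrsf1b, Il1r1, Il1rn) and 3 fell (Myd88, Irak2, Traf6), against a background of 34% of all genes, 18.6% higher and 15.4% lower. All 10 had no overlap between the genotypes, as did 73.5% of all genes. The median log2 fold change was 0.03 over the 10 genes and 0.01 over all genes. DESeq2 called 7 of the 10, against 37.7% of all genes. The 2 comparisons of genotype use different libraries, and their values for each gene are given side by side in the plot of genotype effects.

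Tnfrsf1b had 186 and 132 CPM in dKO cells, against 52 and 44.3 CPM in WT cells, a 3.3-fold difference (log2 1.72, SE 0.26, adjusted p = 0.00589). Il1r1 had 426 and 381 CPM in dKO cells, against 301 and 284 CPM in WT cells, a 1.38-fold difference (log2 0.47, SE 0.13, adjusted p = 0.0313). Both genes were higher in each dKO library. Tnfrsf1a had 264 and 242 CPM in dKO cells, against 296 and 294 CPM in WT cells, without overlap, and the log2 difference of -0.22 did not pass (adjusted p = 0.134, interval -0.47 to 0.02). Il1rap, at 13.3 and 16.1 CPM in dKO cells, against 11.2 and 13.1 CPM in WT cells, differed by 0.27 (adjusted p = 0.301, interval -0.19 to 0.73).

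Il1rn (ENSMUSG00000026981, chromosome 2, 24336853 to 24351494, plus strand) had 61 counts over both dKO libraries with cytokines, against 2 over both WT libraries. The ratio of scaled counts was 32.9, with a 95% interval from 8.72 to 278 that covers counting error only, and the edgeR adjusted p was 0.0321. Without cytokines the sums were 27 counts in dKO and 5 in WT, a ratio of 6.6 (interval 2.51 to 21.9), and the test did not pass (adjusted p = 0.154). These few counts lay in all 4 dKO libraries and in 2 of the 4 WT libraries at 0.09 and 0.18 CPM.

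Myd88 (ENSMUSG00000032508, chromosome 9, 119335934 to 119341411, minus strand) had 32.5 and 31.7 CPM in dKO cells, against 68.4 and 51.5 CPM in WT cells. It was 1.87-fold lower in dKO (log2 -0.90, SE 0.14, adjusted p = 0.00641). Of its exon bases 11.3% lie under exons of Acaa1a, and the sources used here do not give the strand setting of the counting, so its counts are uncertain to that extent. Irak2 (ENSMUSG00000060477, chromosome 6, 113638467 to 113695026, plus strand) had 24.3 and 26 CPM in dKO cells, against 39.8 and 39.2 CPM in WT cells, and was 1.57-fold lower (log2 -0.65, SE 0.10, adjusted p = 0.00618). Traf6 (ENSMUSG00000027164, chromosome 2, 101678429 to 101701669, plus strand) had 27.3 and 32.2 CPM in dKO cells, against 46.8 and 46.6 CPM in WT cells, and was 1.57-fold lower (log2 -0.65, SE 0.15, adjusted p = 0.018). For these 3 genes both dKO libraries lay below both WT libraries.

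Irak1 (ENSMUSG00000031392, chromosome X, 74013914 to 74023918, minus strand), the kinase recruited first after IRAK4, had 189 and 163 CPM in dKO cells, against 140 and 132 CPM in WT cells. Its log2 difference of 0.37 (SE 0.12) stood at an adjusted p of 0.0524 in edgeR and 0.0493 in DESeq2, and passed without dKO with cytokines replicate 2 (0.0439). Traf1 had 93.8 and 113 CPM in dKO cells, against 179 and 141 CPM in WT cells, a log2 difference of -0.63 (adjusted p = 0.203) that passed without dKO replicate 1 (0.0271) or replicate 2 (0.0261) lacking cytokines, neither of which is part of this comparison.

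The calls of Tnfrsf1b, Myd88 and Irak2 held when any 1 library was left out. Il1r1 was lost without any of the 4 WT libraries (0.0642 to 0.155) or dKO with cytokines replicate 1 (0.139), Traf6 without WT with cytokines replicate 1 (0.0886) or 2 (0.0748) or dKO with cytokines replicate 1 (0.0886), and Il1rn without any of the 4 libraries compared (0.0581 to 0.145).

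In WT cells, cytokines raised Tnfrsf1b, Myd88, Irak2 and Traf1 and lowered Tnfrsf1a. These 5 of the 10 genes passed, 4 higher and 1 lower, against a background of 17.4% of all genes, 9.72% higher and 7.69% lower. The libraries with and without cytokines did not overlap for 9 of the 10 genes, as for 68.2% of all genes. The median log2 fold change was 0.32 over the 10 genes and -0.01 over all genes. With the libraries of the same number and genotype as pairs, 8 of the 10 passed, 6 higher and 2 lower, against a background of 37.9% of all genes, 19.3% higher and 18.5% lower: Il1r1 (adjusted p = 0.0323) and Traf6 (0.0161) were added as higher and Irak1 (0.0186) as lower. Scaling by library totals in place of TMM, which shifted the median of all genes by -0.21, gave 3 higher and 2 lower genes. Over all genes that scaling gave more lower than higher calls, as counted in the section on processing. DESeq2 called 5 of the 10 genes against a background of 21.9%.

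Traf1 (ENSMUSG00000026875, chromosome 2, 34941750 to 34961772, minus strand), itself a known NF-kB target that binds TRAF2, showed the steepest change of the 10 in WT cells. It had 179 and 141 CPM with cytokines, against 45.1 and 47.9 CPM without, a 3.45-fold rise (log2 1.79, SE 0.36, adjusted p = 0.0236). Tnfrsf1b had 52 and 44.3 CPM with cytokines, against 23.2 and 24.3 CPM without, a 2.03-fold rise (log2 1.02, SE 0.25, adjusted p = 0.0404). The libraries with and without cytokines did not overlap for either gene.

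Tnfrsf1a fell to 296 and 294 CPM with cytokines, against 444 and 481 CPM without, 1.57-fold lower (log2 -0.65, SE 0.1, adjusted p = 0.0105). Irak2 had 39.8 and 39.2 CPM with cytokines, against 26.4 and 25.7 CPM without, a 1.52-fold rise (log2 0.60, SE 0.1, adjusted p = 0.0125). Myd88 had 68.4 and 51.5 CPM with cytokines, against 41.4 and 41.5 CPM without, a 1.45-fold rise (log2 0.53, SE 0.14, adjusted p = 0.0466). The libraries were apart for all 3 genes, with WT with cytokines replicate 1 the highest for Myd88.

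Without any 1 of the 4 WT libraries Tnfrsf1a (adjusted p 0.0603 to 0.0789), Tnfrsf1b (0.106 to 0.194), Irak2 (0.0652 to 0.095) and Traf1 (0.0699 to 0.138) no longer passed. Myd88 was lost without WT replicate 1 (0.198) or 2 (0.187), without WT with cytokines replicate 1 (0.231), without any 1 dKO library (0.0589 to 0.068) and with library totals (0.136).

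**Figure D4:**
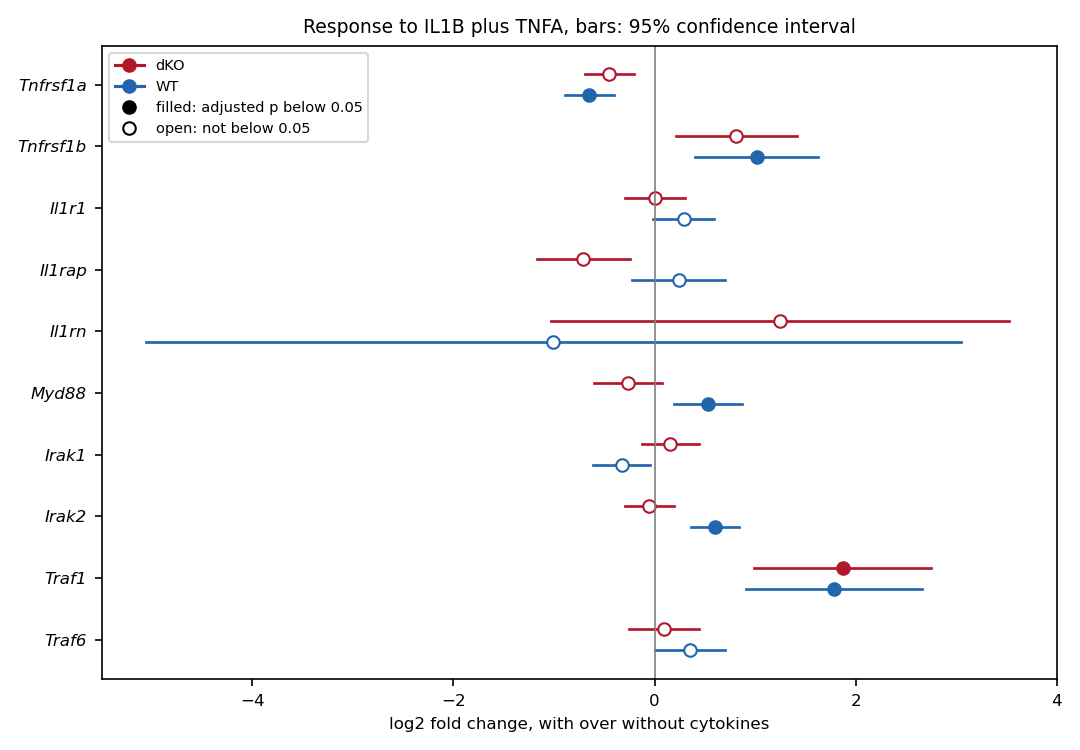
Log2 fold change of cells with cytokines over cells without for each of the 10 genes, in dKO and in WT cells, with 95% intervals from edgeR (not adjusted for the number of genes) and filled points where the adjusted p was below 0.05. Traf1 lies above 0 in both genotypes and Tnfrsf1a below 0 in both, while Myd88 and Irak2 lie above 0 in WT cells and near or below 0 in dKO cells.

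In dKO cells the same cytokines raised Traf1, and 9 of the 10 genes did not pass. The background was 5.55% of all genes, 3.5% higher and 2.06% lower, and the median log2 fold change was 0.05 over the 10 genes and -0.01 over all. The libraries of the 2 treatments did not overlap for 7 of the 10 genes, as for 49.5% of all genes. With the libraries of a number as pairs, 4 passed against a background of 24%, 12.7% higher and 11.3% lower, Traf1 (adjusted p = 0.0079) and Tnfrsf1b (0.000719) higher and Tnfrsf1a (0.012) and Il1rap (0.0247) lower. DESeq2 also called 4, against a background of 11.8%. With library totals in place of TMM, which shifted the median of all genes by -0.14, 0 of the 10 genes were higher and 1, Tnfrsf1a, was lower. All genes also had more lower than higher calls under that scaling, as counted in the section on processing.

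Traf1 had 93.8 and 113 CPM with cytokines, against 17.7 and 38.9 CPM without, a 3.66-fold rise (log2 1.87, SE 0.36, adjusted p = 0.0426). Tnfrsf1b had 186 and 132 CPM with cytokines, against 110 and 70.4 CPM without, a log2 difference of 0.81 (SE 0.25, adjusted p = 0.12 without pairs). Within each pair its level was higher with cytokines. Tnfrsf1a had 264 and 242 CPM with cytokines, against 331 and 361 CPM without, a log2 difference of -0.45 (SE 0.1, adjusted p = 0.056 without pairs). Il1rap had 13.3 and 16.1 CPM with cytokines, against 27.7 and 20.3 CPM without, a log2 difference of -0.71 (SE 0.19, adjusted p = 0.088 without pairs), and its groups did not overlap. The call of Traf1 was kept without dKO replicate 2, but lost without any of the other 7 libraries (0.0504 to 0.133), with the 4 libraries compared fitted alone (0.187) and with library totals (0.0607).

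Il1r1, the receptor of the added IL1B, differed by 0.00 in dKO cells (interval -0.30 to 0.30), with 426 and 381 CPM with cytokines, against 442 and 363 CPM without. Irak2 had 24.3 and 26 CPM with cytokines, against 27.6 and 24.5 CPM without, a log2 difference of -0.05 (interval -0.29 to 0.19). Myd88 had 32.5 and 31.7 CPM with cytokines, against 40 and 37.4 CPM without, a log2 difference of -0.27 (interval -0.61 to 0.07). The Irak2 libraries of the 2 treatments overlapped, and those of Myd88 did not.

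The difference between the responses of dKO and WT cells was tested as an interaction. Of the 10 genes 0 passed in edgeR, as 0% of all genes did. At an unadjusted p of 0.05, 4 of the 10 genes passed, but the share of all genes at that threshold is not given here. The 4 genes therefore cannot be set against a background. DESeq2 called 0 of the 9 to which it gave an adjusted p, against 2.44% of all genes. With pairs within a genotype 2 passed, against 6.03% of all genes, 3.24% higher and 2.8% lower: Myd88, whose response was lower in dKO by a log2 difference of -0.79 (SE 0.16, adjusted p = 0.0291), and Irak2, at -0.65 (SE 0.15, adjusted p = 0.0406). For Traf1 the difference between the responses was 0.09 (interval -1.11 to 1.29) and for Tnfrsf1b -0.20 (interval -1.06 to 0.65), so these libraries leave room for sizeable differences in either direction.

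The dKO replicate 2 libraries kept more Erg and Fli1 counts than dKO replicate 1. Without both of them, an alternative in which the remaining dKO library of each treatment is assumed to vary like the other groups, 6 genes passed between genotypes without cytokines (background 34.5%) and 8 with cytokines (background 41%). The genes added were Traf1 (adjusted p = 0.00307) and Traf6 (0.00958) as lower without cytokines, and Irak1 (0.0287) as higher and Traf1 (0.0141) as lower with cytokines. The response to cytokines then passed for 5 genes in WT (background 27.2%) and for 3 in dKO (background 8.24%), where Tnfrsf1b (0.0328) rose and Il1rap (0.033) fell beside the rise of Traf1. For the interaction 0 of the 10 passed (background 1.19%).

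Leukocyte marker sums overlapped between the genotypes with cytokines and lay slightly lower in dKO without, while the sums for stellate cells and fibroblasts, cholangiocytes and hepatocytes were higher in dKO. The 12 leukocyte markers summed to 5.61 to 11.1 CPM in dKO with cytokines, 7.34 to 10.2 CPM in WT with cytokines, 5.07 to 6.21 CPM in dKO and 6.27 to 6.31 CPM in WT, with 2 to 4 of the 12 at 1 CPM or more. Tyrobp, Cd3e and Clec4f had 0 counts in all groups, and Ptprc (CD45) stood at 0.05 CPM in 1 dKO library with cytokines and at 0 in the other 7. These levels are below those of Tnfrsf1b and Il1r1 in every library, but CPM of different genes cannot tell which cells supplied the RNA. The 12 markers of stellate cells, pericytes and fibroblasts summed to 15242 to 19188 CPM in dKO with cytokines, 9977 to 10857 in WT with cytokines, 13400 to 17822 in dKO and 9220 to 9349 in WT, with 9 of 12 at 1 CPM or more in each group. Dcn alone gave 9024 to 14787 CPM in every library, so it made up most of each sum. Pdgfra, a marker of fibroblasts and stellate cells, had 1174 and 616 CPM in dKO with cytokines, against 32.2 and 25.4 CPM in WT with cytokines, and 933 and 615 CPM in dKO, against 2.07 and 3.67 CPM in WT. Col3a1 had 1449 and 419 CPM in dKO with cytokines, against 44.7 and 42.8 CPM in WT with cytokines, and 1831 and 332 CPM in dKO, against 24.1 and 27.2 CPM in WT. Col1a2 had 218 and 163 CPM in dKO, against 4.73 and 4.45 CPM in WT. Rgs5, a pericyte marker, had 2.99 and 0.87 CPM in dKO, against 6.76 and 9.84 CPM in WT. With cytokines the genotypes overlapped for Rgs5, at 9.49 and 2.87 CPM in dKO and 2.16 and 7.62 CPM in WT. Pdgfrb, on the same list, had 59.3 and 66.2 CPM in dKO, against 3.25 and 4.55 CPM in WT. With cytokines Pdgfrb had 46.6 and 66 CPM in dKO, against 27.8 and 23.9 CPM in WT. Lrat and Des, of stellate cells, stayed below 1 CPM in every library. Those of cholangiocytes and mesothelium summed to 155 to 265, 3.35 to 3.69, 39.3 to 91.6 and 3.03 to 3.21 CPM in the same order of groups. Of these 8 markers, 4, 1, 4 and 0 were at 1 CPM or more in that order. Spp1 gave most of the dKO sums, and Sox9, Krt19 and Cdh1 were also higher in every dKO library than in every WT library. Krt7 and Epcam stayed below 1 CPM in every library. Those of hepatocytes summed to 166 to 201, 3.13 to 4.36, 187 to 309 and 5.06 to 5.53 CPM, and in dKO nearly all of it came from Ahsg, Hp and Trf. The defining hepatocyte genes Alb and Apoa1 had at most 2 counts in any library, and Ttr, Cyp3a11 and Serpina1c had 0 counts in all groups. The part of these cells or programmes in the higher Tnfrsf1b, Il1r1, Il1rap and Il1rn was not tested.

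Promoters are shown for the 3 receptors that bind the added cytokines, because Tnfrsf1b and Il1r1 differed between the genotypes under both treatments and Tnfrsf1a without cytokines, and ETS factors bind DNA with a GGAA core. The RefSeq table holds 14 promoters of the 10 genes, each from 250 bases before to 50 after a start. Searched on both strands for CCGGAA, 2 of the 14 held a match, as did 14.9% of all 32851 promoters, and for CAGGAA 3 of the 14, as did 30.6%. A pair of these 3 are overlapping promoters of Il1rn that hold the same site. The NF-kB consensus was found in 1 of 14 and in 4.51% of all. The bases before the start are printed 5′ to 3′ in the direction of the gene from RefSeq (GRCm38.p6), from the end of any upstream exon of the gene, with the matches in capitals.
Tnfrsf1a, chr6:125349509-125349722, plus strand, CCGGAA on the opposite strand from position -9: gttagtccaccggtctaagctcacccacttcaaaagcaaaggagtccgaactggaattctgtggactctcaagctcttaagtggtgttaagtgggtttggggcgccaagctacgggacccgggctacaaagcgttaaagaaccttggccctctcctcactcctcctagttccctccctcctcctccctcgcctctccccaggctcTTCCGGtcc
Tnfrsf1b, chr4:145246871-145247120, minus strand, CCGGAA on the gene's strand from position -178: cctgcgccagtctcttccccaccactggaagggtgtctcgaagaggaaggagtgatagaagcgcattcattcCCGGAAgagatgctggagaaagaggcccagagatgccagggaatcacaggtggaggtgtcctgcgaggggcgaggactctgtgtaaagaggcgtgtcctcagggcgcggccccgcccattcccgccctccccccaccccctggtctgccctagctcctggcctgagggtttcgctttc
Il1r1, first promoter, chr1:40224830-40225079, plus strand, CAGGAA on the opposite strand from position -96: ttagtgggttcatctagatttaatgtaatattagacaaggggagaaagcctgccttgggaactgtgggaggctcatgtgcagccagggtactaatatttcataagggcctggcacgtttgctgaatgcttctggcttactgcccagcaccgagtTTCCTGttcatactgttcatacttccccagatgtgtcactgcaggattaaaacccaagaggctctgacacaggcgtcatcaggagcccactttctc
Il1r1, second promoter, chr1:40266336-40266585, plus strand, NF-kB consensus on the opposite strand from position -232: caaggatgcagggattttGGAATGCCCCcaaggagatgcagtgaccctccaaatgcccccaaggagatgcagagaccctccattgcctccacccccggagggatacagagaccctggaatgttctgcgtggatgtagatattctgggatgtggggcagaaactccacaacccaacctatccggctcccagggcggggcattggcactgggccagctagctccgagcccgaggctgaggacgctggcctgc
Tnfrsf1a, which fell in dKO cells without cytokines, and Tnfrsf1b, which rose, thus both held CCGGAA, and a match in these windows describes letters only.

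Of the other genes of these routes 60 were listed and 57 tested. Between genotypes without cytokines 11 rose and 7 fell in dKO cells, and with cytokines 7 rose and 16 fell. With cytokines 24 rose and 2 fell in WT cells, and 18 rose and 2 fell in dKO cells. The backgrounds are those given above for each comparison, and the median log2 fold changes of the 57 were 0.02, -0.18, 0.44 and 0.27 in that order.

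At the TNF receptors, 2 of 15 tested genes rose and 2 fell in dKO without cytokines, 26.7% against 23% of all genes. With cytokines 2 rose and 4 fell, 40% against 34% of all genes. Ripk1, the kinase that TRADD recruits to TNFR1, had 35.8 and 57.4 CPM in dKO with cytokines, against 100 and 102 CPM in WT with cytokines (log2 -1.11, SE 0.24, adjusted p = 0.0164). Without cytokines Ripk1 had 41.4 and 56.3 CPM in dKO, against 85.9 and 91.2 CPM in WT (log2 -0.86, SE 0.24, adjusted p = 0.0467). Traf5 was 2.28-fold higher in dKO with cytokines (adjusted p = 0.0158), a call that 3 alternative fits lost. Fadd, the adaptor that links death domains to caspase 8, was lower by 0.80 on the log2 scale in dKO without cytokines (adjusted p = 0.0151), and Timp3, an inhibitor of the sheddase ADAM17 that cuts TNF and its receptors, was 5.0-fold higher without and 5.09-fold higher with cytokines. Birc2 and Birc3, ubiquitin ligases that bind TRAF2, rose with cytokines in both genotypes, Birc3 2.93-fold in dKO and 3.17-fold in WT and Birc2 2.21-fold in dKO and 3.08-fold in WT. Ripk1 with cytokines was lost without WT with cytokines replicate 1 (0.0756) or 2 (0.0685), and Ripk1 without cytokines without any of the 4 WT libraries (0.0796 to 0.169) or dKO replicate 1 (0.199). Fadd was lost without WT replicate 1 (0.0953) or 2 (0.073), and Timp3 without cytokines without WT replicate 1 (0.0635).

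At the interleukin-1 receptor, 4 of 11 tested genes rose and 0 fell in dKO without cytokines, 36.4% against 23% of all genes. With cytokines 2 rose and 3 fell, 45.5% against 34% of all genes. Irak3, known as an inhibitor of the route, rose in both genotype comparisons and with cytokines in both genotypes. It had 81.6 and 79 CPM in dKO with cytokines, 60.5 and 63.3 CPM in WT with cytokines, 36.9 and 37 CPM in dKO, and 28.5 and 27.7 CPM in WT. The libraries of the 4 groups did not overlap. Peli2, a ubiquitin ligase that acts on IRAK kinases, had 28.1 and 31.8 CPM in dKO with cytokines, against 9.22 and 14.2 CPM in WT (log2 1.36, SE 0.2, adjusted p = 0.00552). Peli3 was 4.35-fold higher in dKO without cytokines (adjusted p = 0.00443). Irak4, the first kinase of the complex, was lower in dKO with cytokines by 0.42 on the log2 scale (SE 0.12, adjusted p = 0.0368), and Peli1, a relative of Peli2, by 0.43 (SE 0.11, adjusted p = 0.0229). Il1r2, a decoy receptor, had 40 counts over both dKO libraries without cytokines, against 5 in WT, a ratio of 9.78 (counting interval 3.86 to 31.7, edgeR adjusted p = 0.0337). With cytokines it had 20 counts in dKO, against 13 in WT, a ratio of 1.66 (counting interval 0.785 to 3.63). Irak3 in dKO without cytokines was lost without WT replicate 1 (0.102) or 2 (0.114) or dKO replicate 1 (0.0814), Peli1 without WT with cytokines replicate 1 (0.123) or 2 (0.0801) or dKO with cytokines replicate 1 (0.104), and Irak4 without any WT library or either dKO library with cytokines (0.0681 to 0.164).

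Among the shared kinases 1 of 9 rose and 1 fell in dKO without cytokines, 22.2% against 23% of all genes. With cytokines 1 rose and 2 fell, 33.3% against 34% of all genes. Map3k3, a kinase upstream of the IkB kinases, was lower in dKO under both treatments, by 0.77 (adjusted p = 0.0279) and 0.96 (adjusted p = 0.0107) on the log2 scale without and with cytokines. Map3k8 was higher in dKO without cytokines (log2 0.71, adjusted p = 0.0124). With cytokines Ikbkg was higher (log2 0.55, adjusted p = 0.0144) and Ikbkb lower (log2 -0.33, adjusted p = 0.0427). Of the alternative fits, 3, 3 and 11 lost the calls of Map3k8, Ikbkg and Ikbkb. Map3k7, which encodes TAK1, did not pass in either genotype comparison. Tab2, its partner, rose 1.48-fold with cytokines in dKO (adjusted p = 0.0488) and 1.87-fold in WT (adjusted p = 0.00655). Map3k3 was lost without cytokines when any WT library or dKO replicate 1 was left out (0.0511 to 0.134) and with cytokines without WT with cytokines replicate 1 (0.0677). Tab2 was lost in dKO without any 1 library (0.0752 to 0.193) and in WT without WT replicate 2 (0.061).

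The ligands themselves differed. Tnf had 0.68 and 1.02 CPM in dKO with cytokines, against 22 and 16.4 CPM in WT with cytokines, and was 22.5-fold lower in dKO (log2 -4.49, SE 0.35, adjusted p = 0.00127). Il1a, which binds the same receptor as IL1B, had 65.5 and 71.4 CPM in dKO with cytokines, against 7.98 and 7.19 CPM in WT with cytokines, and was 9.02-fold higher (log2 3.17, SE 0.2, adjusted p = 0.000879). For both genes the libraries of the 2 genotypes with cytokines were far apart. Without cytokines Il1a was already 2.62-fold higher in dKO (adjusted p = 0.00678 in edgeR), though not in every fit with 1 library left out. Tnf had 4 counts over both dKO libraries without cytokines, against 26 over both WT libraries, a ratio of 0.188 (counting interval 0.0477 to 0.542). The rise of Il1a with cytokines was larger in dKO than in WT cells by 1.8 on the log2 scale with pairs (SE 0.2, adjusted p = 0.00374) and passed in DESeq2 (7.1e-05), but not in edgeR without pairs (0.18). The interaction of Tnf did not pass in edgeR without pairs (0.398) or with them (0.195), nor in DESeq2 (0.346). Of the exon bases of Il1a, 11.2% lie under those of the gene model Gm14023, so its counts are uncertain to that extent.

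Of 10 target genes of NF-kB listed as a readout of the response, 10 rose with cytokines in WT and 8 in dKO. The backgrounds were 17.4% and 5.55% of all genes, and Cxcl1 and Sele did not pass in dKO. With pairs and in DESeq2, 10 of 10 passed in dKO, against backgrounds of 24% and 11.8%. Tnfaip3, an inhibitor of NF-kB that the route itself induces, had 665 and 416 CPM in dKO with cytokines, against 91.6 and 65.5 CPM in dKO without, and rose 6.89-fold (adjusted p = 0.0105). In WT it had 928 and 675 CPM with cytokines, against 53.9 and 46.4 CPM without, and rose 16-fold (adjusted p = 0.00223). Ccl2, a monocyte chemokine, had 8206 and 10205 CPM in dKO with cytokines, against 1285 and 1664 CPM in dKO without, a 6.24-fold rise (adjusted p = 0.00516). Its response differed between the genotypes by 0.08 on the log2 scale. Icam1 and Sele, adhesion molecules for leukocytes, were 3.27-fold (adjusted p = 0.0104) and 9.33-fold (adjusted p = 0.0336) lower in dKO than in WT cells with cytokines. Without cytokines Icam1 was already 2.73-fold lower in dKO (adjusted p = 0.0233 in edgeR), though not in every fit with 1 library left out. Sele then averaged 59.9 CPM (SD 62.5) in dKO, against 444 CPM (SD 24.5) in WT, and did not pass. Of the 10 readout genes 0 passed the interaction test in edgeR without pairs, as 0% of all genes did. With pairs 4 of the 10 had a smaller response in dKO, Tnfaip3 (log2 difference -1.22, adjusted p = 0.00437), Cxcl1 (-1.12, adjusted p = 0.00528), Vcam1 (-1.20, adjusted p = 0.0108) and Relb (-0.68, adjusted p = 0.0151). Over all genes 2.8% passed with a lower value in dKO, and in DESeq2 1 of the 10 readout genes did, Relb (adjusted p = 0.0191). The Icam1 difference with cytokines was lost without replicate 1 of WT or of dKO with cytokines. That of Sele was lost without any WT library or either dKO library with cytokines.

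**Figure D5:**
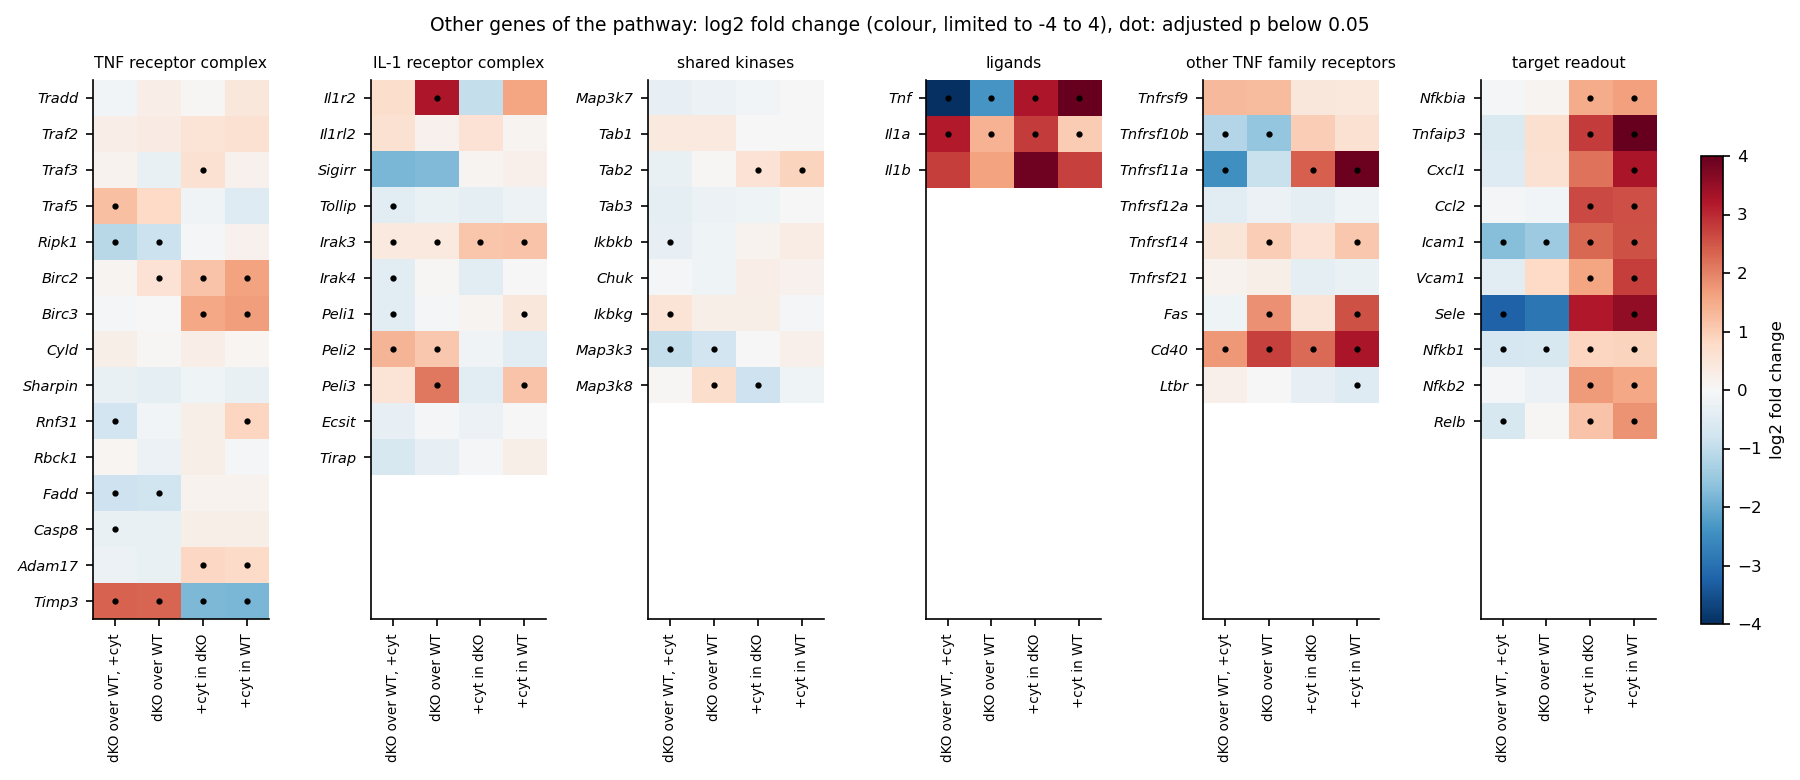
Log2 fold change (colour, limited to -4 to 4) of the 57 tested genes in 6 parts of the list and 4 comparisons, with a dot where the adjusted p was below 0.05. The readout genes are higher with cytokines in both genotypes, and Tnf and Il1a differ between the genotypes in opposite directions.

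Some genes followed the receptors closely over the 8 libraries, as a description without a test in which the libraries share genotype and treatment. Tnfrsf1b was most like Gpm6b, a membrane glycoprotein gene (Pearson r of 0.999 on log2 CPM), Ago2 (0.994) and Nav3 (0.993), of genes with a mean of at least 10 CPM. Tnfrsf1a was most like Sptlc2 (0.988), Sh3bp4 (0.988) and Vps26c (0.987), and Il1r1 like C1s1 (0.994), Lcn2 (0.989) and Samd14 (0.987). Il1rn was most like Mier2 (0.969), Unc5b (0.964) and Uggt2 (0.962). Gpm6b averaged 0.035 CPM in WT and 1.45 CPM in WT with cytokines, and Il1rn had at most 5 counts in any WT library. The r values of these 2 genes thus rest in part on levels near the floor. Lcn2, which encodes the secreted protein lipocalin-2, averaged 14084 CPM in dKO with cytokines, 3667 in WT with cytokines, 12093 in dKO and 1276 in WT.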

How the data were processed

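The deposited values are raw counts per Ensembl gene, whole and without any normalization seen in them. The sources used here do not give the authors' counting program, its annotation or its strand setting. FastQC 0.11.5, STAR 2.7.6a and GRCm38 are named in the submitters' processing notes. Per the labels' protocols, either an unstranded or a stranded kit was used, so counts of overlapping genes may be shared.

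Groups and replicate numbers came from the sample titles. Counts were fitted with edgeR 4.0.16 in R 4.3.3, with TMM scaling, a low-count filter that kept 15698 of 52636 genes, and a robust quasi-likelihood model of the 4 groups over 8 libraries, which left 4 residual degrees of freedom and a common biological coefficient of variation of 24.3%. Each of 5 contrasts was tested two-sided at 0.05 after Benjamini-Hochberg adjustment over all tested genes, and the script was tested on simulated data. CPM values use TMM-scaled totals. Gene positions and lengths are from GENCODE M21 on GRCm38, and promoters from RefSeq. Count intervals are at 95% and cover counting error alone, since no molecular identifiers mark independent molecules.

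Alternatives were DESeq2 1.42.0, RLE size factors, no filter or 1 CPM in 2 libraries, only the libraries compared, replicate blocks, each library left out, both dKO replicate 2 libraries left out and, chosen after seeing the data, library totals without TMM. Deviations from the group means correlated between libraries of the same number at 0.43 in WT and 0.69 in dKO, and at 0.02 to 0.13 across genotypes. The descriptions of paired libraries share a name stem, but the labels state no pairing, so the pairs within a genotype rest on the data.

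The 10 genes and the lists (60 genes of the routes in 6 parts, and 5 lists of cell markers) were chosen with earlier results of these data known. Named genes were the 10, Erg, Fli1, the up to 3 largest changes past 0.05 at 1 CPM or more in each part of the list and contrast, and the 3 genes most like each receptor and Il1rn. Il1r2, Map3k7, Vcam1, Relb and single marker genes were named after their values were seen. So were the interactions of Cxcl1, Tnfaip3, Il1a and Tnf, and the levels of Sele and Tnf without cytokines. Some genes under the rule are left out.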

Additional observations from a re-analysis of the deposited data

Results flagged for a closer look

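In 4 of the 10 genes either the interaction passed with the pairs as a block (2 genes) or every library moved one way in dKO and the other way in WT (3 genes). Of all tested genes 9.63% met either, 6.03% the first and 4.43% the second. The interaction of Il1rap and Irak1 passed in none of the edgeR and DESeq2 fits. The response of Myd88, in dKO minus WT, was -0.80 on the log2 scale (SE 0.20, edgeR adjusted p = 0.251), and -0.79 with pairs (adjusted p = 0.0291). It was lower with cytokines in both dKO pairs and higher in both WT pairs. The response of Irak2 differed by -0.65 (SE 0.14, adjusted p = 0.225, and 0.0406 with pairs), and its dKO libraries overlapped between treatments. The fitted difference of Il1rap was -0.95 (SE 0.27, adjusted p = 0.302, and 0.0737 with pairs), with lower levels in both dKO pairs and higher levels in both WT pairs given cytokines. That of Irak1, on the X chromosome, was 0.48 (SE 0.17, adjusted p = 0.386, and 0.0589 with pairs), with higher levels in both dKO pairs and lower levels in both WT pairs given cytokines.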

How the results depend on the processing

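With 2 libraries a group, 4 residual degrees of freedom set the precision, and most calls near the threshold depended on single libraries. The main fit treated the 8 libraries as independent. Deviations of libraries of the same number correlated at 0.43 in WT and 0.69 in dKO, so the residuals hold less separate information. The fit with pairs as a block leaves fewer residual degrees of freedom. Of 817 tests of the 10 genes under alternatives, 693 kept their direction and their side of the threshold, 64 lost a call, 32 gained one and 28 changed sign, 0 of them of a called difference. When each library was left out in turn, the 10 genes had 0 to 6 calls between genotypes without cytokines (4 in the fit of all libraries), 3 to 7 with cytokines (6), 0 to 4 for cytokines in WT (5), 0 to 1 in dKO (1) and 0 to 0 for the interaction (0). All tested genes had 527 to 3783 calls without cytokines (3617), 1621 to 5523 with cytokines (5343), 413 to 2749 for cytokines in WT (2733), 130 to 731 in dKO (872) and 0 to 41 for the interaction (0). The 57 listed genes had 1 to 19, 5 to 22, 12 to 26, 10 to 17 and 0 to 0 in the same comparisons, and the 4 tests of Erg and Fli1 had 0 to 4 (0).

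With only the libraries compared, all genes had 2266 calls without cytokines, 4585 for cytokines in WT and 1 in dKO, the list 11, 15 (genotypes with cytokines) and 0 (cytokines in dKO), and the 10 genes 0 in dKO. Without both dKO replicate 2 libraries all genes had 5602 calls without cytokines, 4417 for cytokines in WT, 1339 in dKO and 193 for the interaction, the list 29 without cytokines and 2 for the interaction, the 10 genes 3 in dKO, and Erg and Fli1 4 of 4. DESeq2 gave 1852 calls in dKO and 383 for the interaction, 4 of the 10 genes in dKO, 4 listed genes for the interaction and 4 of 4 for Erg and Fli1. With no filter on low counts the 10 genes had 3 calls in WT, where all genes had 2434, and 0 in dKO. For the interaction all genes then had 75 calls and the list 1. With 1 CPM in 2 libraries the 10 genes had 2 calls in dKO, and Erg and Fli1 2 of 4. The counts of all genes in dKO under these 2 filters are not given here, so those member counts have no background.

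With the pairs within a genotype as a replicate block, the 10 genes had 8 calls in WT, 4 in dKO and 2 for the interaction, all genes 5943, 3769 and 947, and the list 31 in dKO and 7 for the interaction. With an additive replicate block across genotypes, the 10 genes had 2 calls in dKO, all genes 1351 in dKO, and Erg and Fli1 3 of 4, and Irak1 passed between genotypes with cytokines (adjusted p = 0.0231 in edgeR). Neither block changed a call of the 10 genes other than these and those in the report. Library totals in place of TMM gave, higher and lower, 1714 and 2326 genes without cytokines (2101 and 1516 with TMM), 2596 and 2624 with (2926 and 2417), 878 and 2408 for cytokines in WT (1526 and 1207) and 339 and 546 in dKO (549 and 323). The list then had 10 and 12 without cytokines (11 and 7) and 13 and 5 in dKO (18 and 2).

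Uncalled differences that changed sign were those of Il1r1 with cytokines in dKO, 0.00 in the fit of all libraries, which was -0.0023 with RLE factors and in DESeq2, -0.0029 with 1 CPM in 2 libraries, -0.13 with library totals, -0.0082 with only the libraries compared and -0.049 without both dKO replicate 2 libraries, of Traf6 in dKO, -0.046 with library totals, and of Irak2 between genotypes without cytokines, 0.00 in the fit of all libraries, which was -0.014 with RLE factors and in DESeq2, -0.019 with no filter and -0.15 with library totals. Over the libraries left out in turn, Il1r1 in dKO ran from -0.13 to 0.15, Traf6 in dKO from -0.075 to 0.28, Irak2 from -0.094 to 0.083 between genotypes without cytokines and from -0.13 to 0.034 in dKO, and Il1rn in WT from -4.24 to 3.19. The interaction ran from -0.49 to 0.18 for Tnfrsf1b, from -1.94 to 5.49 for Il1rn and from -0.35 to 0.77 for Traf1. Levels per kilobase used merged exons, and with the longest transcript 32 of 40 moved by more than the spread between libraries. The causes were not tested.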
